A study of Mus musculus with 6 samples.

Results

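Cytochrome P450 enzymes and flavin-containing monooxygenases (FMOs) were followed in prostate cancer cells selected for resistance to BL-B01D1. The genes were taken by name from the count table. They were all protein-coding genes with a P450 symbol (CYP, a family number, a subfamily letter and a gene number) or an FMO symbol with a gene number of 1 to 5, apart from CYP51A1, CYP1A1, CYP1A2 and CYP1B1, 4 P450 genes that were set aside by name. The rule used names and biotype, with no measured value in it. This gave 56 of the 58735 genes in the table, 19951 of which were protein coding. Of these, 2 are not reported here and are in none of the counts and sums below, which cover the other 54 genes (50 P450 and 4 FMO genes). Of the 54 genes, 17 were tested and 37 had too few counts for it. In the cells selected for resistance, 4 of the 17 tested genes were called lower (CYP4X1, CYP2C8, CYP2S1 and CYP27B1) and 0 were called higher. Over all tested genes of the table, 2.84% were called lower and 2.53% higher. The share among the 17 is not evidence about the family. CYP2C8 and CYP2S1 were over the low-count filter's minimum in every parental library but not in every resistant one.

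RNA-Seq was performed on 22Rv1, an established human prostate carcinoma line. Parental cells (3 libraries) received vehicle, and the subline 22Rv1 BL-B01D1_R (3 libraries) came from the same line after months under rising amounts of BL-B01D1, an antibody-drug conjugate against EGFR and HER3 with a camptothecin-derived topoisomerase I inhibitor (Ed-04) as its payload. Because 1 subline from 1 selection was sequenced, and neither the drug level at harvest nor separate cultures are given for the libraries in the sources used here, selection, drug exposure and drift of a single line cannot be told apart, and p-values cover only the spread between these libraries. The sample labels name mouse as the organism, but the gene identifiers and the hg38 build are human.

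P450 enzymes are heme proteins of the endoplasmic reticulum and mitochondria that insert oxygen into drugs, steroids, fatty acids, vitamins and bile acid precursors, using electrons handed over by P450 oxidoreductase or by adrenodoxin. FMOs do related work with a flavin in place of heme and attack nitrogen and sulfur atoms of drugs and amines. Most of the drug-oxidizing members are known from liver and intestine, and prostate epithelium is not a main site of their expression.

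Total counts per library ran from 13821639 to 17251491, so 3 counts corresponded to 0.174 to 0.216 CPM (counts per 1e+06, with library sizes scaled by TMM). The labelled cell type was checked with marker lists. All 9 reported prostate luminal markers were tested, 0 passed the call rule, 6 were higher and 3 lower by the adjusted p alone, and their summed level was 2792 to 2857 CPM in parental and 2951 to 3039 CPM in resistant libraries. Of 10 hepatocyte markers, 2 were tested, ALB at 310 ± 7.7 and 90.6 ± 2.2 CPM (SD, n = 3 each) and CPS1 at 4.30 ± 0.50 and 18.6 ± 2.1 CPM, and SERPINA1 and HP were at 0 in every library. The summed hepatocyte list was 306 to 321 CPM in parental and 109 to 111 CPM in resistant libraries. Intestinal markers (8 listed, 3 tested) summed to 53.0 to 55.6 and 94.2 to 98.1 CPM with CDX1, CDX2, FABP2 and TFF3 at 0. Most of that sum was VIL1, at 46.8 ± 1.3 and 89.4 ± 1.7 CPM. By the adjusted p alone VIL1 and SI were higher and LGALS4 was lower. Fibroblast markers (8 listed, 4 tested) summed to 112 to 115 and 39.6 to 44.7 CPM with FAP at 0, and most of that sum was LUM, called lower at 96.0 ± 3.0 against 28.8 ± 2.4 CPM. Leukocyte markers (7 listed, 1 tested) summed to 1.57 to 2.50 and 1.21 to 1.91 CPM with CD3E and MS4A1 at 0. The part of these lists in the results below was not tested, and in bulk libraries fewer cells of a type and less RNA per cell cannot be told apart.

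Which P450 and FMO genes did these cells transcribe at all? Of the 54 genes, 48 had at least 1 count in some library and 17 (15 P450 and 2 FMO genes) passed the filter on low counts. That was 31.5% of the set, against 68% of all protein-coding genes in the table. All 54 genes together gave 2045 to 2501 counts in parental and 1863 to 2008 counts in resistant libraries, or 142 to 147 and 121 to 127 CPM, with no overlap between the groups. The 4 genes called lower made up 19.5 to 22.2 CPM of this in parental and 5.73 to 6.33 CPM in resistant libraries, and the other 50 genes made up 122 to 125 and 115 to 120.4 CPM. The 5 most abundant members of a library took 67.7% to 71.1% of the set's counts in parental libraries and 74% to 78.6% in resistant ones.

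**Figure D1:**
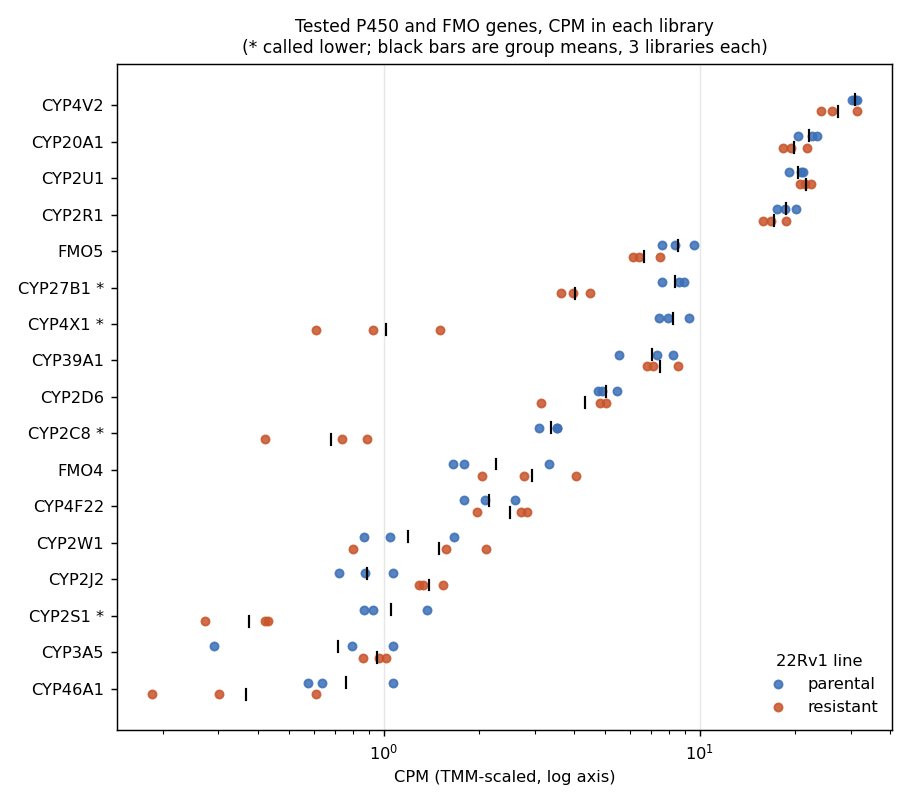
CPM (log axis) of the 17 tested P450 and FMO genes, with 1 point per library (3 parental, 3 resistant) and a black bar at each group mean, ordered by level. CYP4X1, CYP2C8, CYP2S1 and CYP27B1 show parental points that lie above all resistant points, and most of the rest overlap.

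The 17 tested genes were compared in edgeR's quasi-likelihood test over all 17142 tested genes of the table. A gene was called when its Benjamini-Hochberg adjusted p was under 0.05 and its absolute log2 fold change was over 1. Over all tested genes, 2.84% were called lower and 2.53% higher in resistant cells, and 18.4% and 17.1% had an adjusted p under 0.05 in the same directions whatever the size. Among the 54 members, 4 were called lower and 0 higher, which is 7.41% of the members and 23.5% of the 17 tested ones for the lower direction. With the adjusted p alone, 5 members were lower and 0 higher. The share among tested members does not stand as evidence about the family, because 2 of the 4 called genes (CYP2C8 and CYP2S1) had every parental library over the filter's 0.606 CPM but not every resistant one. Tested members had a median log2 fold change of -0.16 (range -2.98 to 0.63, 10 below 0 and 7 above), against 0.00379 over all tested genes. The 4 called genes were all under 10 CPM on average in both lines.

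**Figure D2:**
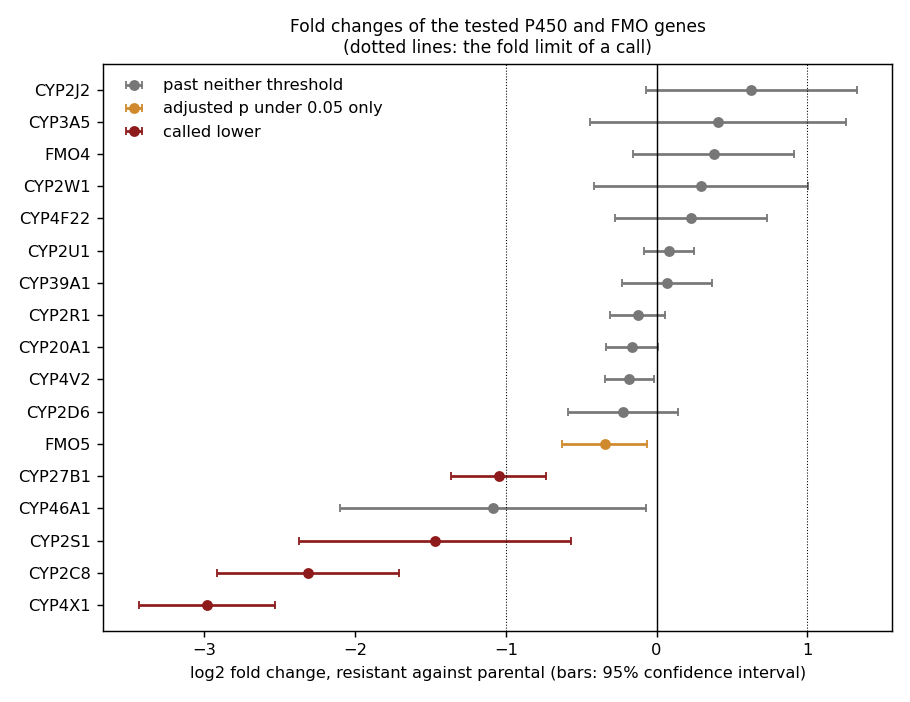
Log2 fold changes, resistant against parental, of the 17 tested genes with 95% confidence intervals, coloured by call, with the fold limit dotted. CYP4X1, at -2.98, and CYP2C8, at -2.31, lie farthest from 0, and no gene lies beyond the limit on the positive side.

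The P450s that oxidize drugs and other foreign compounds were the largest class, with 16 genes, of which 14 had any count and 5 were tested. CYP2C8 and CYP2S1 were called lower and the other tested genes were not called. Summed over the class, levels were 11.2 to 14.2 CPM in parental and 7.15 to 11.1 CPM in resistant libraries, so the 2 groups lay apart by a narrow margin. Without CYP2C8, the sums of the 2 groups overlapped.

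CYP2C8 (ENSG00000138115, chromosome 10, 95036772 to 95069497, minus strand, hg38) is a liver P450 that hydroxylates paclitaxel and also epoxidizes arachidonic acid. It had 61, 52 and 49 counts in parental libraries and 7, 13 and 12 in resistant libraries. On the CPM scale the levels were 3.54, 3.10 and 3.53 against 0.42, 0.88 and 0.74. Every resistant library was far below every parental one. The mean fell from 3.39 ± 0.25 to 0.682 ± 0.24 CPM (SD, n = 3 each), 4.97-fold, or by 2.31 on the log2 scale (SE 0.30, 95% interval -2.92 to -1.71, edgeR adjusted p = 3.03e-08). Per length, its level was 1.32 FPKM in parental and 0.265 FPKM in resistant cells. In the same libraries the hepatocyte marker ALB fell by 1.77 on the log2 scale and the other tested one, CPS1, rose by 2.10, with SERPINA1 and HP at 0, and a link of either to CYP2C8 was not tested.

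CYP2S1 (ENSG00000167600, chromosome 19, 41193049 to 41207539, plus strand) is a P450 found outside the liver that is induced through the aryl hydrocarbon receptor. Counts were 16, 23 and 12 in parental and 7, 4 and 7 in resistant libraries, which is 0.93, 1.37 and 0.86 against 0.42, 0.27 and 0.43 CPM. The groups did not overlap, but the lowest parental library, with 12 counts, was not far above the highest resistant ones, with 7. Its log2 fold change was -1.47 (SE 0.45, 95% interval -2.37 to -0.57, edgeR adjusted p = 0.00833). This call was lost without parental replicate 2 (log2 fold change -1.23, adjusted p = 0.0780) and without resistant replicate 2 (-1.30, adjusted p = 0.0511).

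CYP2D6, which oxidizes many antidepressants, opioids and beta blockers, was the most abundant drug-oxidizing P450 here. It was at 4.76, 5.48 and 4.90 CPM in parental and 4.83, 5.03 and 3.14 CPM in resistant libraries (log2 fold change -0.22, edgeR adjusted p = 0.367). The groups overlapped. Reads of CYP2D6 and its near-identical pseudogene CYP2D7, which had 56, 49 and 38 counts against 35, 36 and 34, may not be fully separable, so the value is uncertain.

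CYP2W1, a P450 of fetal gut and colorectal tumors, had a log2 fold change of 0.30 (edgeR adjusted p = 0.56) at a parental mean of 1.19 CPM. CYP3A5, which shares drug and steroid substrates with CYP3A4, had one of 0.41 (adjusted p = 0.493) with 5, 18 and 11 counts against 16, 15 and 14. Neither gene's groups were apart, and the span within the parental libraries of CYP3A5 exceeded the difference between the means.

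The other drug-oxidizing genes were at or close to the counting limit. CYP3A4, the main drug-oxidizing P450 of liver and gut and an enzyme known to act on the camptothecin irinotecan, had 1, 3 and 2 counts in parental and 0, 0 and 1 in resistant libraries. CYP2E1, an ethanol-oxidizing enzyme, had 2, 8 and 4 against 3, 9 and 6, and CYP2A6, the nicotine oxidase, 2, 8 and 5 against 7, 6 and 6. CYP2C18, of the same subfamily as CYP2C8, had 2, 1 and 2 against 2, 4 and 2. CYP2B6 and CYP2A13 had no count in any library, which allows up to 0.174 to 0.216 CPM per library. A difference between the lines was not detectable at this depth for these genes.

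Among the P450s of fatty acids and eicosanoids, 14 genes were listed, 13 had a count and 5 were tested. CYP4X1 was called lower and the other 4 were not called. The class summed to 60.4 to 65.7 CPM in parental and 52.6 to 57.1 CPM in resistant libraries, with no overlap. That gap rested on CYP4X1, and the sums of the other genes of the class overlapped between the groups.

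CYP4X1 (ENSG00000186377, chromosome 1, 47023568 to 47050751, plus strand) belongs to the family of fatty acid hydroxylases, and its own physiological substrate is not settled. Counts were 137, 125 and 128 in parental and 25, 9 and 15 in resistant libraries. In CPM these were 7.95, 7.44 and 9.22 against 1.51, 0.61 and 0.92. The parental libraries lay close together and the resistant ones were low in all 3 cases. The mean fell from 8.20 ± 0.92 to 1.01 ± 0.45 CPM (SD, n = 3 each), 7.89-fold, or by 2.98 on the log2 scale (SE 0.22, 95% interval -3.43 to -2.53, edgeR adjusted p = 1.43e-14). Per length the level went from 3.22 FPKM, close to that of CYP2U1 (3.34 FPKM) and CYP4V2 (3.15 FPKM) in parental cells, to 0.398 FPKM.

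CYP4V2, the fatty acid hydroxylase mutated in Bietti crystalline dystrophy of the retina, had more counts than any other of the 54 genes. Its level was 31.0, 30.3 and 31.3 CPM in parental libraries and 24.2, 26.1 and 31.4 CPM in resistant libraries. One resistant library thus stood level with the parental ones, and the log2 fold change was -0.18 (95% interval -0.34 to -0.02, edgeR adjusted p = 0.0729).

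CYP2U1, a hydroxylase of long-chain fatty acids, was at 20.9, 19.1 and 21.1 CPM against 22.5, 21.5 and 20.8 CPM. The log2 fold change was 0.08, with an interval of -0.08 to 0.25 (edgeR adjusted p = 0.468). CYP2J2, an arachidonic acid epoxygenase of heart and tumors, had 15, 18 and 10 counts against 22, 19 and 25. Its resistant libraries were all above its parental ones on the CPM scale, at 1.39 ± 0.13 and 0.887 ± 0.18 CPM (SD, n = 3 each), but the log2 fold change of 0.63 (interval -0.07 to 1.33) had an edgeR adjusted p of 0.16. CYP4F22, which makes fatty acids for skin ceramides, had overlapping groups and a log2 fold change of 0.23 (adjusted p = 0.527).

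The vitamin D P450s comprised 3 genes, of which 2 were tested and 1 was called lower. CYP27B1 (ENSG00000111012, chromosome 12, 57762334 to 57768986, minus strand) is the mitochondrial hydroxylase that makes calcitriol, the active hormone. Counts of CYP27B1 were 153, 127 and 119 in parental and 66, 66 and 59 in resistant libraries, or 8.88, 7.56 and 8.57 against 3.98, 4.49 and 3.64 CPM. Both groups were tight and far apart. The mean fell from 8.34 ± 0.69 to 4.03 ± 0.43 CPM (SD, n = 3 each), 2.07-fold, or by 1.05 on the log2 scale (SE 0.16, 95% interval -1.36 to -0.73, edgeR adjusted p = 5.9e-07). The interval crosses the fold limit, and the log2 fold change was -0.9978 without parental replicate 1 and -0.98 without resistant replicate 3, just inside it. METTL1, which overlaps CYP27B1 on the same strand and had 405.3 counts on average, had a log2 fold change of -0.12 (adjusted p = 0.235), and how the counting split reads between them is not given in the sources used here.

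CYP2R1, the hydroxylase of the preceding step in vitamin D activation, was at 17.6, 18.6 and 20.1 CPM in parental and 16.8, 15.8 and 18.7 CPM in resistant libraries. The groups overlapped (log2 fold change -0.13, edgeR adjusted p = 0.301). CYP24A1, which inactivates calcitriol and is a target of the vitamin D receptor, had 0, 2 and 0 counts in parental and 0 in all resistant libraries. The receptor itself, VDR, fell from 17.9 ± 0.31 to 11.4 ± 0.68 CPM (SD, n = 3 each), by 0.66 on the log2 scale (adjusted p = 6.45e-07), which is under the fold limit of a call.

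No gene of the steroid hormone class could be tested. Of its 6 genes, CYP11B1, CYP11B2 and the aromatase CYP19A1 were at 0 in every library. CYP17A1, the androgen-synthesis enzyme that abiraterone inhibits, had 0, 1 and 0 counts in parental and none in resistant libraries. CYP11A1, the cholesterol side-chain cleavage enzyme at the start of steroid synthesis, had none in parental and 2, 1 and 2 in resistant libraries. All of these are at or under 3 counts per library, so no fold is given. The summed class stayed at or under 0.136 CPM in every library, under the 0.174 to 0.216 CPM that 3 counts stand for.

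The bile acid and oxysterol class had 6 genes and 2 tested ones, neither called. CYP39A1, an oxysterol hydroxylase, was at 8.24, 7.32 and 5.55 against 6.82, 8.50 and 7.09 CPM, with overlapping groups and a log2 fold change of 0.07 (edgeR adjusted p = 0.762). CYP46A1, the brain cholesterol hydroxylase, had 11, 18 and 8 counts in parental and 5, 9 and 3 in resistant libraries. Its log2 fold change of -1.08 (SE 0.50, interval -2.10 to -0.07) was past the fold limit, but its groups overlapped and the adjusted p was 0.0907. CYP27A1, the sterol hydroxylase of the alternative bile acid route, had 11, 3 and 6 counts against 5, 2 and 5, and CYP7B1, which follows it on that route, 11, 3 and 1 against 4, 1 and 2, both too few for the test. CYP20A1, an orphan with no settled substrate, had the highest level per length of the whole set, 7.20 FPKM in parental and 6.44 FPKM in resistant cells. In its libraries it was at 23.4, 20.4 and 22.7 against 19.4, 21.8 and 18.3 CPM, which overlapped (log2 fold change -0.16, adjusted p = 0.143).

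The retinoid P450s comprised 4 genes, and none passed the filter. CYP27C1, which desaturates vitamin A in skin, had 0, 1 and 0 counts in parental libraries and 7, 6 and 7 in resistant libraries. All 3 resistant libraries were above all parental ones, and the ratio of summed counts, scaled to library size, was 20.2, with a 95% counting interval (Clopper-Pearson) of 3.23 to 836 that covers counting error only. Without the filter on low counts, CYP27C1 was called higher (log2 fold change 3.90, edgeR adjusted p = 0.0049). CYP26C1, one of the enzymes that clear retinoic acid, was absent from the parental counts and had 4, 3 and 0 in resistant libraries, so the groups overlapped. CYP26B1, of the same subfamily, had 9, 4 and 2 counts against 2, 4 and 2.

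Of the 4 FMO genes reported, 2 were tested, 0 were called and 1, FMO5, was lower by the adjusted p alone. Together the 4 genes summed to 10.3 to 11.5 CPM in parental and 9.06 to 10.6 CPM in resistant libraries, which overlapped.

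FMO5, an FMO that inserts oxygen next to carbonyl groups, was at 8.35, 7.56 and 9.58 CPM in parental and 6.39, 7.48 and 6.16 CPM in resistant libraries. The lowest parental library, at 7.56 CPM, lay just above the highest resistant one, at 7.48 CPM, and the log2 fold change of -0.34 (SE 0.14, interval -0.63 to -0.06) had an edgeR adjusted p of 0.0495. That p rose over 0.05 in 9 of 10 alternative analyses and in 4 of the 6 that left out a library. CHD1L, which overlaps FMO5 on the opposite strand, had 1503 counts on average and a log2 fold change of 0.02 (adjusted p = 0.755). The pseudogene PDIA3P1, also on the opposite strand, had 335.2 counts and -0.22 (edgeR adjusted p = 0.0359). CCT8P1, a pseudogene on the same strand, had 37.83 counts and -0.23 (adjusted p = 0.527). Other overlapping genes had 1.667 counts or fewer. Whether strand was used in counting is not given, and read sharing between these genes and FMO5 was not tested.

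FMO4, of unsettled substrate range, had 31, 56 and 23 counts against 67, 30 and 45. The groups overlapped widely (log2 fold change 0.38, interval -0.15 to 0.91, edgeR adjusted p = 0.283). Parental replicate 2 was the high one of its group, and without it the log2 fold change was 0.77 (adjusted p = 0.0431). FMO1, the fetal liver and kidney form, had 0, 1 and 3 against 3, 5 and 2 counts. FMO2, the lung form, had 3, 2 and 1 against none, too few to give a fold.

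Many of these genes sit in tandem clusters made by duplication, and 31 of the 54 lay in 8 clusters whose members started within 0.5 Mb of the next. Most cluster members were silent or nearly so. In the CYP4 cluster of chromosome 1 (392 kb, 46757838 to 47149741), CYP4X1 was the only 1 of 5 genes tested, and the highest count of CYP4B1, CYP4A11, CYP4Z1 or CYP4A22 in any library was 2. In the CYP2C cluster of chromosome 10 (386 kb, 94683621 to 95069497), CYP2C8 was the only 1 of 3 reported genes tested, with at most 4 counts for CYP2C18 or CYP2C19. CYP2S1 was likewise the only 1 of 6 tested in the cluster of CYP2A, CYP2B and CYP2F genes on chromosome 19 (364 kb, 40843538 to 41207539), where no other gene exceeded 8 counts.

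FMO2, FMO1 and FMO4 lie together on chromosome 1 (157 kb, 171185208 to 171342084), with FMO4 as the 1 tested gene, and FMO5 lies elsewhere on the chromosome (147175351 to 147243050). The CYP3A cluster of chromosome 7 (218 kb) held 1 tested gene, CYP3A5, and the CYP4F cluster of chromosome 19 (426 kb) 1, CYP4F22, and neither was called.

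**Figure D3:**
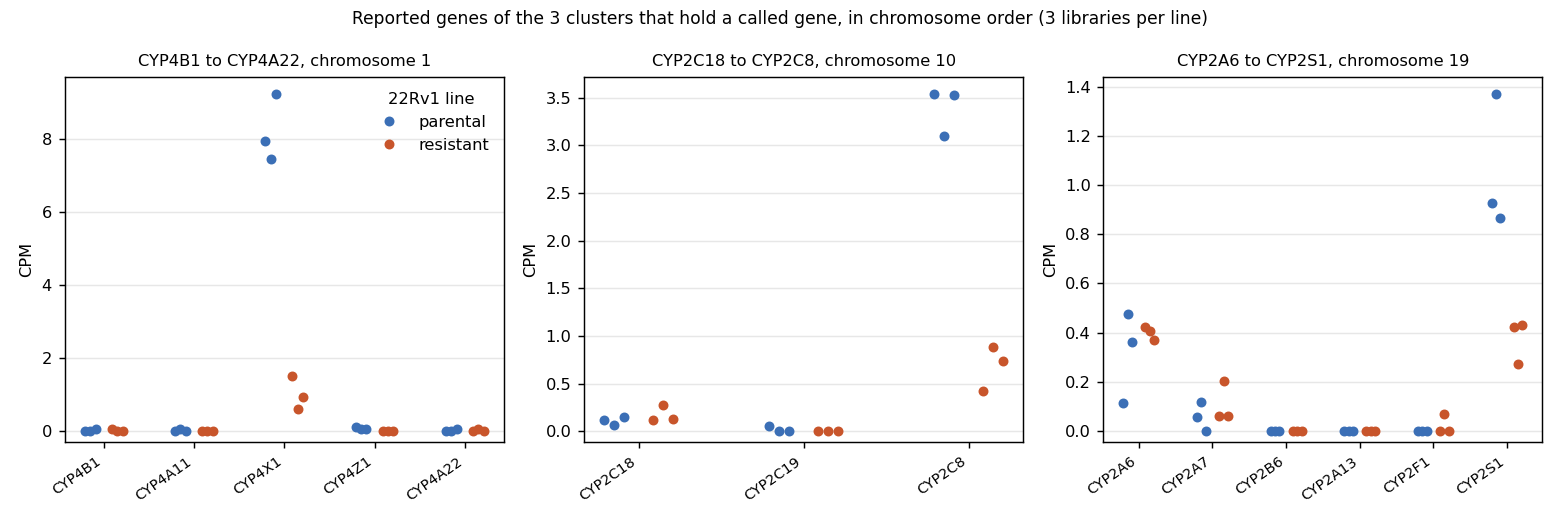
CPM by library of the reported genes in the 3 clusters that hold a called gene, in chromosome order, with parental and resistant libraries in separate colours. In parental libraries CYP4X1, CYP2C8 and CYP2S1 stand above the other genes of their clusters, and in resistant libraries they are lower.

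The genes next to the 4 called members were also examined, a step added after their values were known, with 3 tested genes taken on each side (for CYP2C8, 5 genes are reported). Of the 6 neighbours of CYP4X1, 1 was called lower and 0 higher, where 2.84% of all tested genes were called lower. It was PDZK1IP1, 133 kb away, with a log2 fold change of -1.39 (SE 0.40, edgeR adjusted p = 0.00549). The log2 fold changes of the other neighbours ran from -0.20 for STIL (adjusted p = 0.00163) to 0.26 for MOB3C (adjusted p = 0.276). EFCAB14, the nearest on the other side, was at 0.18 (adjusted p = 0.000397). Of the 5 reported neighbours of CYP2C8, 0 were called, and their log2 fold changes ran from -0.77 for PDLIM1, 168 kb away (adjusted p = 1.11e-11), to -0.10 for NOC3L. Of the 6 neighbours each of CYP27B1 and CYP2S1, 0 were called in either direction, and the log2 fold changes next to CYP27B1 ran from -0.25 for EEF1AKMT3 to 0.33 for TSPAN31.

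Companion genes of these enzymes were taken from 5 lists, and beyond POR, CYB5A, FDX1, FDXR and the called genes, those named were picked after their values were seen. For the counts of each list, the shares over all tested genes were 2.53% called higher and 2.84% called lower. By the adjusted p alone they were 17.1% higher and 18.4% lower. The proteins that feed electrons to P450s had 0 calls. Of 12 listed genes 11 were tested, with 2 higher and 4 lower by the adjusted p alone and a median log2 fold change of 0.00445. POR, the oxidoreductase that serves all microsomal P450s, was at 106, 104 and 105 CPM in parental and 106, 105 and 104 CPM in resistant libraries. Its log2 fold change was 0.00 (interval -0.08 to 0.08). CYB5A, the cytochrome b5 of microsomes, was at 50.5 ± 3.5 and 53.6 ± 0.47 CPM (log2 fold change 0.09, adjusted p = 0.24). CYB5R3, the cytochrome b5 reductase, fell by 0.46 on the log2 scale (164 ± 7.6 to 119 ± 2.3 CPM, adjusted p = 2.93e-13). FDX1, the adrenodoxin of mitochondrial P450s such as CYP27B1, fell by 0.30 (56.8 ± 3.6 to 46.3 ± 3.5 CPM, adjusted p = 0.000114), and its reductase FDXR rose by 0.19 (27.0 ± 0.60 to 30.8 ± 1.4 CPM, adjusted p = 0.0346).

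Heme synthesis and breakdown also had 0 calls. All 12 genes were tested, 3 were higher and 2 lower by the adjusted p, and the median was 0.06. ALAS1, the rate-limiting enzyme of heme synthesis, was at 74.3 ± 1.9 and 71.3 ± 2.0 CPM (adjusted p = 0.348). BLVRA, which turns biliverdin into bilirubin, rose by 0.67, and HMOX1, the inducible heme oxygenase, fell by 0.58 on the log2 scale.

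Among 26 nuclear receptors and factors known to set P450 transcription, 18 were tested, 1 was called higher and 0 lower, and 5 were higher and 7 lower by the adjusted p (median -0.02). The called gene was NR5A2, an orphan receptor of liver and pancreas that controls bile acid and steroid P450s. It had 19, 23 and 22 counts in parental and 171, 141 and 190 in resistant libraries, and rose from 1.35 ± 0.24 to 10.5 ± 1.1 CPM (log2 fold change 2.97, SE 0.19, adjusted p = 7.7e-17). The groups were far apart. The xenobiotic receptor NR1I2 and the liver factor HNF4A were not tested, with at most 4 and 3 counts in any library.

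Genes of retinoic acid handling moved in both directions. Of 14 listed genes 9 were tested, 1 was called higher and 1 lower, and 3 each were higher and lower by the adjusted p (median -0.09). ALDH1A1, which makes retinoic acid from retinal, rose from 0.935 ± 0.50 to 4.16 ± 1.2 CPM (log2 fold change 2.20, SE 0.29, adjusted p = 5.29e-08). CRABP2, which carries retinoic acid to its receptors, fell from 26.7 ± 1.6 to 11.0 ± 1.9 CPM (log2 fold change -1.28, SE 0.10, adjusted p = 3.06e-14). DHRS3, which turns retinal back into retinol, rose by 0.84 (adjusted p = 2.54e-07). Of 15 epoxide hydrolases and prostanoid enzymes, which act on P450 and cyclooxygenase products, 11 were tested, 0 were called, 2 were higher and 2 lower by the adjusted p, and the median was 0.21. EPHX1, the microsomal epoxide hydrolase, fell by 0.61 and EPHX2, the soluble one, rose by 0.40 on the log2 scale.

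**Figure D4:**
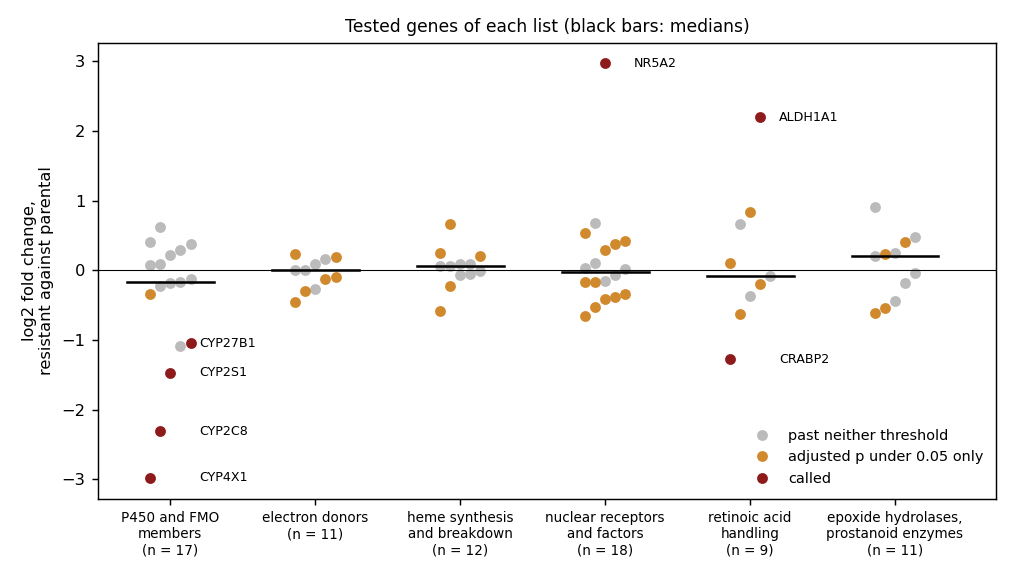
Log2 fold changes, resistant against parental, of the 17 tested P450 and FMO genes and of the tested genes of the 5 companion lists, 1 point per gene, coloured by call, with black bars at the medians. Called genes are named: 4 lie below 0 among the P450 and FMO genes, none is in the electron donor and heme lists, and NR5A2, at 2.97, is the highest of the companion genes.

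The 4 calls differed in how far they rested on the analysis. CYP4X1 and CYP2C8 were called in every one of the 6 analyses that left out a library, with log2 fold changes of -3.38 to -2.74 and -2.53 to -2.05. These were also the only members that passed a test against the fold limit itself (edgeR glmTreat). CYP27B1 had an adjusted p under 0.05 in all 6 but a log2 fold change that spanned the limit, from -1.13 to -0.98. Where a gene needed at least 10 counts in every library, 12 members were tested and CYP27B1 was the 1 called, since the other called genes had resistant libraries under that count. On the log2(FPKM + 1) scale, which shrinks the changes of low genes, the log2 fold changes were -1.60 for CYP4X1, -0.88 for CYP2C8, -0.66 for CYP27B1 and -0.27 for CYP2S1, so CYP4X1 alone kept a change over 1.

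**Figure D5:**
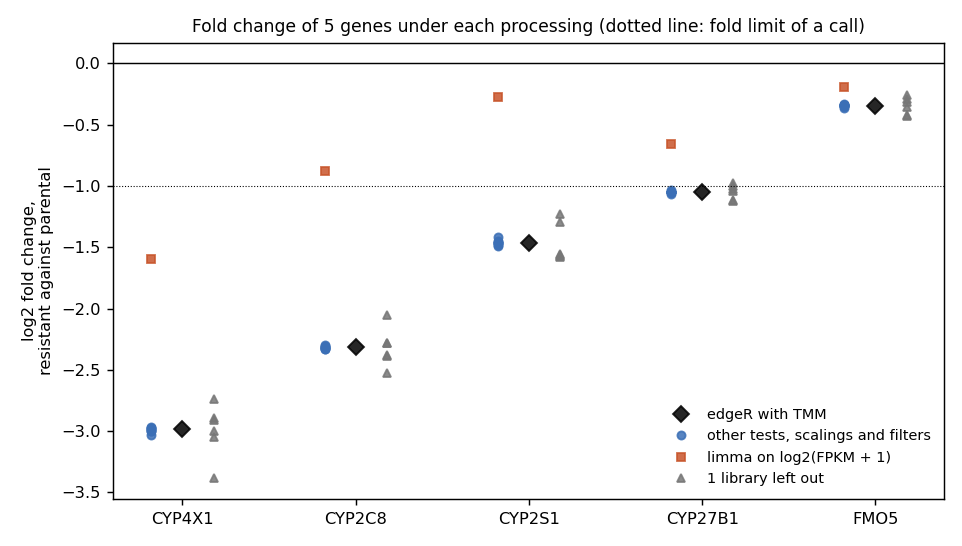
Log2 fold changes of the 4 called genes and FMO5 in each alternative analysis, 1 point per analysis, with a diamond for the reported one, a square for the log2(FPKM + 1) scale and triangles for analyses without 1 library. CYP4X1 stays past the dotted fold limit of -1 throughout, CYP2C8 and CYP2S1 do so except on the log2(FPKM + 1) scale, and CYP27B1 lies along the limit.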

How the data were processed

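Total RNA of 22Rv1 cells was sequenced in 6 poly-A libraries, and the labels gave the groups (3 parental, 3 resistant). The authors trimmed reads with fastp, mapped them to hg38 with HISAT2 2.0.5, counted them per gene with featureCounts 1.5.0-p3 and deposited raw counts per gene, with gene lengths in bases as another quantity. The annotation release, the use of strand and the treatment of multimapped reads are not given in the sources used here, so counts of overlapping genes and near-identical paralogs are uncertain. All per-sample columns were used (0 left out).

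The deposited counts were passed through filterByExpr, TMM scaling and the quasi-likelihood test of edgeR 4.0.16 (R 4.3.3), with p-values adjusted over 17142 genes by Benjamini and Hochberg. The biological coefficient of variation was 3.51% and the median prior degrees of freedom 36.1. SE was the log2 fold change divided by the square root of F. FPKM was computed from the counts and deposited lengths. No fold is given where a group had no counts, and the floor of 3 counts per library and the counting intervals cover counting error only. Alternatives were limma-voom and limma on log2(FPKM + 1) (limma 3.58.1), DESeq2 (1.42.0), library size alone, upper quartile, a minimum of 10 counts in every library, no filter, glmTreat, protein-coding genes only, the replicate number as a block, and each library left out. Scripts were tested on simulated data.

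The members, the classes and the companion and marker lists were chosen with earlier results of these data known, and none was trimmed by its values. For 2 members, 1 prostate marker and 1 gene near a member, results are not reported here. They stayed in the fits. By rule, called members were named with their values in every library, other tested or untested members by levels or counts, and, from the companion lists, POR, CYB5A, FDX1, FDXR and every called gene. Other companion genes and the neighbouring genes were named after their values were seen. No human sequence was used here.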

Additional observations from a re-analysis of the deposited data

How the results depend on the processing

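Against 4 members called lower and 0 called higher, the count called lower was 1 with at least 10 counts in every library (CYP27B1), 2 with glmTreat (CYP4X1 and CYP2C8) and 1 with limma on log2(FPKM + 1) (CYP4X1). The count of members lower by adjusted p, 5 in the reported analysis, was 1 with at least 10 counts in every library and 2 with glmTreat. Without the filter 1 member, CYP27C1, was called higher and passed the adjusted p. Leaving out each library gave 3 to 4 members called lower, 0 to 1 higher by adjusted p (FMO4, without parental replicate 2) and 4 to 5 lower by adjusted p. CYP46A1 was called without resistant replicate 2, and CYP4V2 had an adjusted p under 0.05 without resistant replicate 3. The fold changes of CYP4X1, CYP2C8, CYP2S1, CYP27B1 and FMO5 kept their sign in every alternative that tested them. With the replicate number as a block, 4 members (CYP4X1, CYP2C8, CYP2S1 and CYP27B1) were called lower and 0 higher, and 4 were lower by adjusted p, without FMO5. Deviations from the group means were not correlated between libraries of equal number (correlations -0.00806, -0.0197 and -0.0157), and 0 of 6 libraries correlated best with its own number. With 3 libraries per group these deviations are tied to each other. They therefore cannot show whether libraries of equal number shared a culture or a batch. Depth limits the 37 untested members most: 20 of them had a highest count of 1 to 3, 6 had none, and the widest 95% interval of a tested member reached 1.01 on the log2 scale to each side.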

Other observations

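Pseudogenes of the CYP4F subfamily, which are not protein coding and so not among the 54 genes described, were looked at after their values were seen. Of 16 such symbols, 8 were tested, 3 were called higher and 0 lower in resistant cells (2.53% of all tested genes were called higher), 4 were higher by adjusted p, and 5 were at 0 in every library. CYP4F62P (chromosome 2, 130429827 to 130441413) had 31, 24 and 21 counts in parental and 75, 60 and 71 in resistant libraries (log2 fold change 1.45, edgeR adjusted p = 1.65e-06). CYP4F30P (chromosome 2, 130680050 to 130685863) had 9, 16 and 14 against 48, 34 and 28 (1.49, adjusted p = 0.000353), and CYP4F35P (chromosome 18, 14337423 to 14342524) had 7, 7 and 8 against 29, 27 and 31 (1.97, adjusted p = 3.73e-05). The groups of each were apart. CYP4F35P had every parental library under the filter's 0.606 CPM (0.41, 0.42 and 0.58 CPM) and was tested through its resistant libraries. CYP4F30P was under it in parental replicate 1, at 0.52 CPM. The share called higher among the tested copies therefore does not stand as evidence about these pseudogenes. CYP4F29P had 102, 110 and 78 against 152, 166 and 178 (0.79, adjusted p = 6.21e-06), under the fold limit. Other copies had lower levels in resistant cells with the groups apart in CPM. CYP4F26P, annotated as a noncoding RNA, was at 9.92, 9.11 and 8.86 against 8.69, 8.43 and 8.07 CPM (-0.15, adjusted p = 0.377). CYP4F23P had 16, 12 and 10 counts against 5, 7 and 5 (-1.13, adjusted p = 0.0618), with every resistant library under 0.606 CPM. CYP4F60P, not tested, had 3, 5 and 6 against 0, 1 and 0. The share of all genes with groups apart was not counted. The sequences of these copies were not compared here and the treatment of multimapped reads is not given, so the counts of each are uncertain. In the same libraries the protein-coding CYP4F genes were low. CYP4F22, the tested one, had a log2 fold change of 0.23 that did not pass the test. CYP4F12 had 4 counts over all resistant libraries and none in parental ones, and CYP4F11 had none at all. CYP4F8 had 3, 1 and 2 counts in parental and 2, 8 and 4 in resistant libraries. CYP4F2 had 3, 4 and 3 against 0, 3 and 2, and CYP4F3 had 0, 0 and 2 against none.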
